A study of Mus musculus with 6 samples.

Results

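The transcription factor p53, encoded in mice by Trp53, and 33 genes that it regulates or that regulate it were followed in tongue RNA of mice exposed to a carcinogen with or without the DNA sensor gene Aim2. These 34 genes were taken by symbol from the deposited expression table, which lists 35275 genes, and every one matched exactly 1 row. Bulk RNA sequencing had been done on tongues of 3 Aim2 KO and 3 wild type (WT) replicates, each numbered 1 to 3. Mice of both genotypes were given 4NQO at 100 µg/ml in the water they drank, over 20 weeks, so no unexposed tongue is among the samples. This quinoline compound forms DNA adducts, and mice that take it up develop squamous lesions of the oral epithelium. The labels describe the mutant as an Aim2 knockout without naming its allele, and give no strain, sex or age. Since nothing in them ties a library to one animal, a p-value here reads only the variation among the 6 libraries, which may be technical. RNA came from whole tongue, in which fewer cells of a type and less RNA per cell cannot be told apart.

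p53 is a tumour suppressor that DNA damage stabilises. Bound to its response elements, it switches on genes that halt the cell cycle, help repair, or trigger apoptosis, and among these is its own inhibitor Mdm2, which closes a negative feedback loop. One of its best known targets is Cdkn1a, whose product p21 inhibits cyclin-dependent kinases and so lets the DREAM repressor complex silence genes of mitosis. In stratified epithelia such as that of the tongue, the relative p63 (Trp63) is the lineage factor of basal cells and shares some targets with p53, the desmosomal gene Perp among them.

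A p53 response element consists of 2 half-sites of 10 bases. RefSeq promoter windows of GRCm38, which run from 250 bases before to 50 after a gene's start, were at hand for 28 of the 34 genes and were searched for the p53 response element consensus. This consensus reads the same on both strands. Allowed were at most 1 mismatch over the 20 bases of both half-sites and a spacer of up to 13 bases. Matches were found for 4 of the 28 genes, in 10.8% of their 37 windows, whereas 1.09% of all 32851 RefSeq windows hold one. These stretches are shown because they hold the kind of sequence that p53 binds, with the 2 half-sites in capitals and up to 30 bases on either side, in the direction of transcription.
Cdkn1a, chr17:29090898-29090977 on the plus strand: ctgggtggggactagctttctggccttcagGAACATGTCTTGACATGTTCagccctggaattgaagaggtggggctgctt
Ccng1, chr11:40755432-40755511 on the minus strand: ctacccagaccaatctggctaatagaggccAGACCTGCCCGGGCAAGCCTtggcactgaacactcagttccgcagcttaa
Bax, chr7:45467060-45467140 on the minus strand: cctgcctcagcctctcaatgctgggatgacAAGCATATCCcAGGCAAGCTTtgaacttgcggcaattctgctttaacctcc
Polk, chr13:96519368-96519437 on the minus strand: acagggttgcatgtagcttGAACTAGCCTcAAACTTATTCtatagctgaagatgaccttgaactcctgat
The match in Cdkn1a begins 51 bases before an upstream start of that gene, the one in Ccng1 195 bases, the one in Bax 212 bases and the one in Polk 231 bases before a start. The half-sites abut in Cdkn1a and Ccng1 and lie 1 base apart in Bax and Polk, and each match has 1 mismatch. Where a window held several matches, the one with the shortest spacer is shown. A match is a description of the letters and not evidence of binding.

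Reads counted for the listed genes numbered 21959204 to 25369400 a library, as recovered from the deposited FPKM values (fragments scaled to gene length and library size). Aim2 itself, the check of the labels, had 0.0469, 0.0564 and 0.160 FPKM in Aim2 KO replicates 1 to 3, against 0.201, 0.363 and 0.417 FPKM in WT replicates 1 to 3. Those values come from 3, 4 and 10 reads in the mutant and 14, 25 and 30 reads in WT. No Aim2 KO library reached the lowest WT library (p = 0.1 by a two-sided exact permutation test, which cannot go lower with 3 against 3). In what follows ± gives the SD over the 3 libraries of a genotype. The tissue carried its defining markers, with Krt13 of suprabasal oral epithelium at 14017 to 16390 FPKM and Acta1 of skeletal muscle at 2111 to 4082 FPKM over the 6 libraries. Over the 8 suprabasal genes the mean log2(FPKM + 1) was 10.38 to 10.44 in Aim2 KO libraries and 10.47 to 10.63 in WT libraries. Lor alone of these genes was lower without overlap (12.5%, beside 1.48% of all genes tested), and by limma 0 of the 8 passed an adjusted p of 0.05. Of the muscle list only Tnnc2 was near 0 (0 to 0.114 FPKM). One library stood apart. Aim2 KO replicate 1 had a summed FPKM of 7807 over the 9 tested muscle genes, against 13240 to 15624 in the other 5 libraries. Over 6 basal epithelial genes it had a summed FPKM of 11034, against 5419 to 8047. Itga6, Itgb4 and Col17a1 of that basal list were highest in WT replicate 3. Krt5, Krt14 (8014 FPKM) and Krt15 were highest in Aim2 KO replicate 1. The plot of differences draws every tested member with and without this library. Leukocyte markers separated the genotypes without overlap. All 8 listed markers were higher in every Aim2 KO library than in any WT library, where 4.98% of the 12144 genes tested were so. Their summed levels were 53.5 to 78.0 FPKM against 28.2 to 32.3 FPKM. By limma and by limma's voom 8 of 8 had an unadjusted p under 0.05, where 1.93% of all genes tested were so and higher by limma. After adjustment over all genes tested, 0 of the 8 passed an adjusted p of 0.05 by either. Of all 12144 genes tested, 1 was called higher by limma and 1 by voom. With limma's array quality weights 7 passed, where 65 of all 12144 genes tested were called higher.

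None of the 33 tested p53 genes passed as changed between Aim2 KO and WT tongues, and their median difference lay close to that of all genes. Of the 34 genes, 33 had a mean of at least 1 FPKM and were tested, and 0 passed an adjusted p of 0.05 in either direction (limma, Benjamini-Hochberg over the 12144 genes tested). Among all genes tested 0.00823% were called higher and 0% lower. At an unadjusted p under 0.05 there was 1 member, Bbc3, both by limma and by limma's voom on the recovered reads, where 2.5% of all genes tested were under that p and 1.93% were so and higher. The median log2 difference of the members, Aim2 KO minus WT on the log2(FPKM + 1) scale, was 0.03, beside 0.02 for all genes tested. Of the 33, 19 (57.6%) had a positive difference, as had 57.2% of all genes tested. The groups did not overlap for 1 member that was higher and 0 that were lower, where 4.98% of all genes tested were higher without overlap and 1.48% lower, 6.46% together. With 1 library left out, groups of 2 and 3 overlap less often. In the order Aim2 KO replicates 1 to 3, then WT replicates 1 to 3, as the library left out, 17.8%, 12.1%, 7.4%, 9.07%, 7.78% and 12.8% of all genes tested were higher without overlap and 5.04%, 4.95%, 4.12%, 3.87%, 3.77% and 5.22% lower. In the same order 4, 3, 2, 2, 1 and 1 of the 33 members were higher without overlap, and 3, 0, 1, 0, 1 and 3 were lower. With quantile normalization 0 members were higher and 0 lower without overlap, beside 3.89% and 2.29% of all genes tested.

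The precision of these comparisons differed by gene. The 95% interval of the log2 difference lay between -0.5 and 0.5 for 19 of the 33 members and between -1 and 1 for 31. Its half-width ran from 0.23 to 1.10 with a median of 0.37, and a gene with a wide interval is not shown to be equal in the 2 genotypes. Exons of Bax, Cdkn1a, Ei24, Gadd45a and Rrm2b overlap those of another gene in the GENCODE M21 annotation by 192 to 734 bases. For Bax the other gene lies on the same strand, so that strand does not separate the reads. For Cdkn1a, Ei24, Gadd45a and Rrm2b it lies on the opposite strand, and whether reads were counted by strand is not given. Reads from the stretch in Bax therefore cannot be assigned to one gene, and for the other stretches this cannot be told here.

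**Figure D1:**
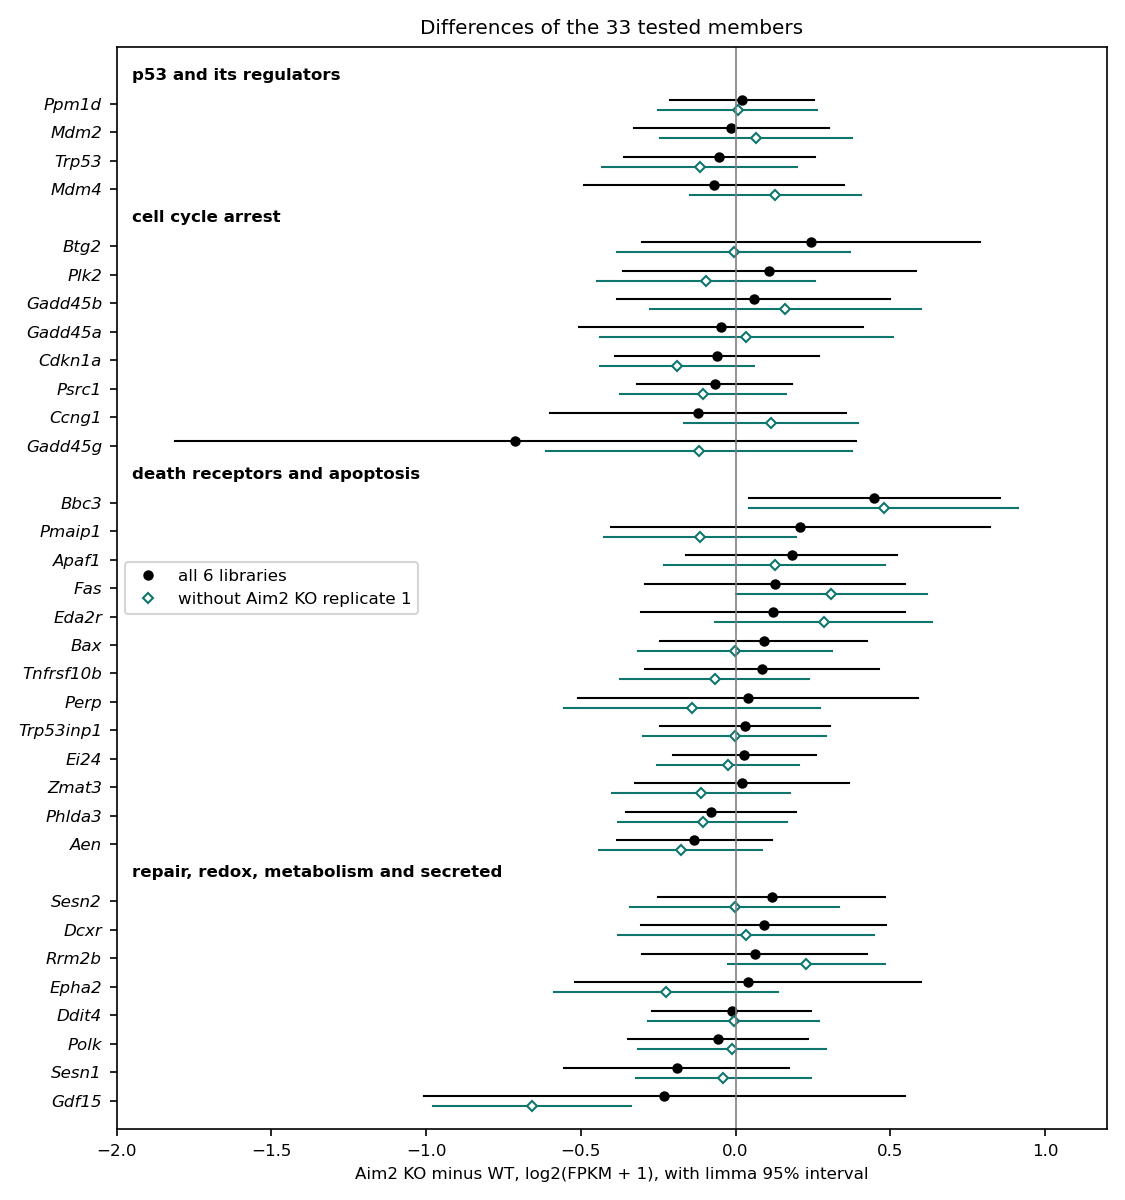
Log2 difference of each of the 33 tested members, Aim2 KO minus WT on the log2(FPKM + 1) scale, by role. Points are estimates and lines the limma 95% intervals, from all 6 libraries (black circles) and without Aim2 KO replicate 1 (green diamonds). With all 6 libraries only the interval of Bbc3, 0.04 to 0.85, lies wholly on one side of 0, and that of Gadd45g is the widest.

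Levels spanned a wide range on the FPKM scale, which corrects for gene length. Perp, Phlda3 and Cdkn1a had means over the 6 libraries above 100 FPKM, 18 of the 34 genes were at 10 FPKM or more, and Pidd1 alone was under 1 FPKM. Perp made up 62.5% to 71.2% of the summed FPKM of the 33 tested members in Aim2 KO libraries and 59.4% to 67.1% in WT libraries. The ratio of a member's highest to its lowest library had a median of 1.59, beside 1.45 over all genes tested, and ran from 1.13 for Ei24 to 5.26 for Gadd45g.

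**Figure D2:**
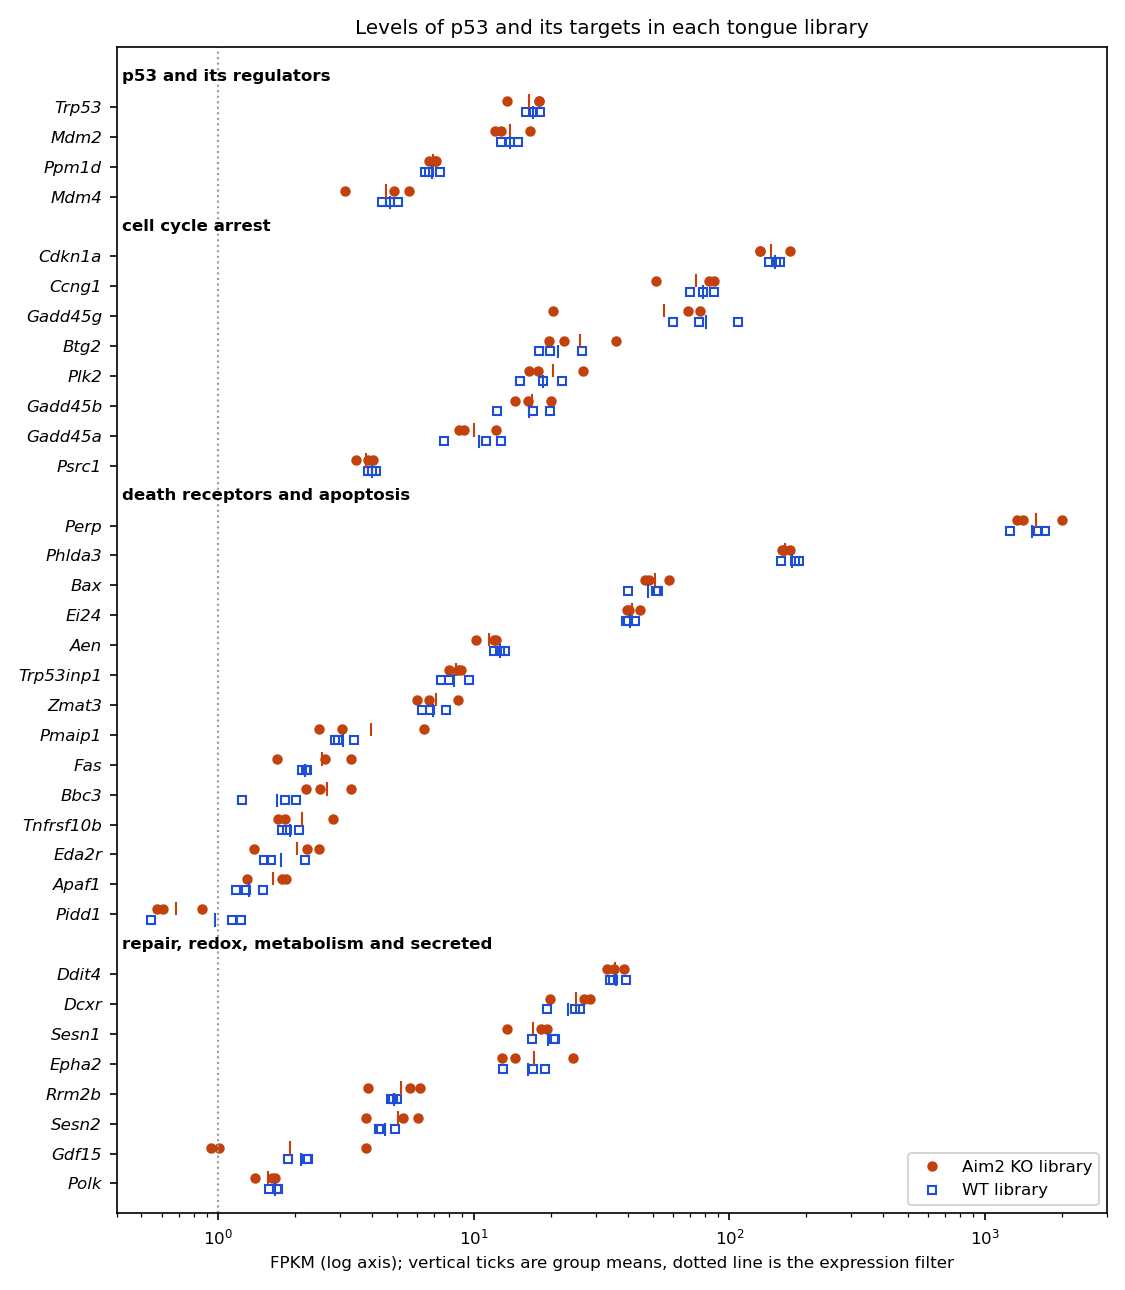
FPKM of the 34 genes in each library on a log axis, by role, with Aim2 KO libraries as filled circles above and WT libraries as open squares below. Short vertical lines are group means and the dotted line marks the 1 FPKM expression filter. Bbc3 is the gene at which the ranges of the 2 genotypes do not overlap.

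The gene for p53 and the 3 for proteins that restrain it had a median log2 difference of -0.03, and 0 of the 4 passed. Trp53, chromosome 11, 69580359 to 69591873, had 17.9, 13.5 and 18.01 FPKM in Aim2 KO replicates 1 to 3, against 15.9, 17.0 and 18.1 FPKM in WT replicates 1 to 3. The lowest value was in an Aim2 KO library and the highest in a WT library, and the log2 difference was -0.05 (95% interval -0.36 to 0.26, limma adjusted p = 0.9998). Mdm2, the ubiquitin ligase that marks p53 for degradation and is itself induced by it, had 12.1, 12.7 and 16.5 FPKM in Aim2 KO replicates 1 to 3, against 12.8, 13.8 and 14.9 FPKM in WT replicates 1 to 3. Its difference was -0.01 (95% interval -0.33 to 0.30). Mdm4, which binds the activation domain of p53 and blocks it, had 3.12, 4.89 and 5.60 FPKM in Aim2 KO replicates 1 to 3, against 4.37, 5.03 and 4.72 FPKM in WT replicates 1 to 3. Its value in Aim2 KO replicate 1 was the lowest of the 6, and its difference of -0.07 was 0.13 without that library. Ppm1d, the Wip1 phosphatase that removes damage-induced phosphates from p53 and its kinases, had a mean of 6.95 ± 0.256 FPKM in Aim2 KO libraries and of 6.83 ± 0.464 FPKM in WT libraries. It was among the steadiest members, with a highest value 1.14 times the lowest.

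Of the 8 genes grouped here under cell cycle arrest, 3 had a positive difference and 5 a negative one, with a median of -0.05, and 0 passed. Cdkn1a, chromosome 17, 29090979 to 29100722, was the most abundant of them. It had 173, 132 and 131 FPKM in Aim2 KO replicates 1 to 3, against 157, 142 and 152 FPKM in WT replicates 1 to 3, with a log2 difference of -0.06 (95% interval -0.39 to 0.27). Aim2 KO replicate 1 was the highest of the 6 libraries and the other two Aim2 KO libraries were the lowest. Without Aim2 KO replicate 1 the difference was -0.19 and the groups did not overlap (limma adjusted p = 0.823). Ccng1, the cyclin G1 that guides a phosphatase to Mdm2, had 51.7, 86.8 and 83.2 FPKM in Aim2 KO replicates 1 to 3, against 79.0, 69.9 and 87.4 FPKM in WT replicates 1 to 3. Here Aim2 KO replicate 1 was the lowest library, and the difference of -0.12 became 0.11 without it. Psrc1, a microtubule-binding protein, had a mean of 3.77 ± 0.290 FPKM in Aim2 KO libraries and of 4.00 ± 0.136 FPKM in WT libraries.

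Btg2, an antiproliferative factor that recruits the mRNA deadenylase machinery, had 36.0, 22.5 and 19.7 FPKM in Aim2 KO replicates 1 to 3, against 26.4, 19.8 and 17.99 FPKM in WT replicates 1 to 3. Plk2, a polo-like kinase, had 26.8, 17.9 and 16.5 FPKM in Aim2 KO replicates 1 to 3, against 22.1, 15.2 and 18.6 FPKM in WT replicates 1 to 3. Both were highest in Aim2 KO replicate 1, and their log2 differences of 0.24 and 0.11 were -0.01 and -0.10 without it.

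The 3 Gadd45 genes encode small stress proteins that bind stress kinases and cell cycle regulators. Gadd45g, chromosome 13, 51846678 to 51848468, had 20.5, 76.7 and 68.9 FPKM in Aim2 KO replicates 1 to 3, against 75.9, 108 and 60.4 FPKM in WT replicates 1 to 3. This was the largest log2 difference by size among the 33 tested members, -0.71, with an interval from -1.81 to 0.39, and it rested on Aim2 KO replicate 1. Without that library it was -0.12 (95% interval -0.61 to 0.38). Skeletal muscle, fibroblast and endothelial markers were all lowest in the same library. With the muscle level as a covariate the Gadd45g difference was -0.49. The part of any of these tissues in the value was not tested. Gadd45a had 8.74, 12.2 and 9.16 FPKM in Aim2 KO replicates 1 to 3, against 11.2, 12.7 and 7.61 FPKM in WT replicates 1 to 3. Gadd45b had 14.4, 20.1 and 16.3 FPKM in Aim2 KO replicates 1 to 3, against 17.0, 19.9 and 12.3 FPKM in WT replicates 1 to 3. For both of these WT replicate 3 was the lowest library, and their differences were -0.05 and 0.06.

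Of the 13 tested genes of apoptosis and death receptors, 11 had a positive difference, with a median of 0.09, and 0 passed. Without Aim2 KO replicate 1 there were 4 positive ones (30.8%) and the median was -0.02, where 66.7% of all genes tested were positive with a median of 0.06. Bbc3, chromosome 7, 16309616 to 16318205, encodes PUMA, a BH3-only protein that neutralises the survival proteins of the Bcl-2 family. It had 2.49, 2.21 and 3.31 FPKM in Aim2 KO replicates 1 to 3, against 1.23, 1.82 and 2.02 FPKM in WT replicates 1 to 3. All 3 Aim2 KO libraries thus lay above all 3 WT libraries. The read numbers behind these levels were 102, 100 and 132 in the mutant and 55, 80 and 93 in WT. It had a mean of 2.67 ± 0.575 FPKM in Aim2 KO libraries and of 1.69 ± 0.409 FPKM in WT libraries, a ratio of 1.58, and the log2 difference was 0.45 (SE 0.17, limma unadjusted p = 0.0338, adjusted p = 0.9998), so that it did not pass. After quantile normalization its groups overlapped. Over the 19 alternatives it ran from 0.32, without WT replicate 1, to 0.66, with array quality weights, and its limma adjusted p from 0.131 to 1. Summed leukocyte markers were at 53.5, 56.2 and 78.0 FPKM in Aim2 KO replicates 1 to 3, against 29.1, 32.3 and 28.2 FPKM in WT replicates 1 to 3. Aim2 KO replicate 3 was the highest library for both these markers and Bbc3. Aim2 KO replicate 1 was above replicate 2 for Bbc3 and below it for these markers. The part of leukocytes in the Bbc3 value was not tested.

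Pmaip1, which encodes the BH3-only protein Noxa, had 6.37, 2.48 and 3.05 FPKM in Aim2 KO replicates 1 to 3, against 3.40, 2.86 and 2.95 FPKM in WT replicates 1 to 3. A single library, Aim2 KO replicate 1, set its log2 difference of 0.21, and without that library it was -0.12. Bax, which forms the pores in the outer mitochondrial membrane, had 58.0, 46.9 and 48.3 FPKM in Aim2 KO replicates 1 to 3, against 52.3, 51.6 and 40.1 FPKM in WT replicates 1 to 3. Its difference was 0.09 (95% interval -0.24 to 0.42), and -0.0031 without Aim2 KO replicate 1. Apaf1, the scaffold of the apoptosome, had a mean of 1.64 ± 0.297 FPKM in Aim2 KO libraries and of 1.32 ± 0.165 FPKM in WT libraries, and its difference was 0.18 (95% interval -0.16 to 0.52).

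Of the death receptors, Fas had 1.70, 2.61 and 3.31 FPKM in Aim2 KO replicates 1 to 3, against 2.22, 2.13 and 2.20 FPKM in WT replicates 1 to 3. The WT libraries lay close together, while the Aim2 KO libraries held both the lowest and the highest value. Its log2 difference of 0.13 was 0.31 without Aim2 KO replicate 1 (limma adjusted p = 0.723). Tnfrsf10b, the mouse TRAIL receptor, had 2.81, 1.72 and 1.82 FPKM in Aim2 KO replicates 1 to 3, against 2.08, 1.86 and 1.78 FPKM in WT replicates 1 to 3. Eda2r, the receptor of ectodysplasin A2, had 1.38, 2.47 and 2.23 FPKM in Aim2 KO replicates 1 to 3, against 1.51, 2.18 and 1.61 FPKM in WT replicates 1 to 3. Tnfrsf10b was highest in Aim2 KO replicate 1 and Eda2r lowest, and neither difference, 0.09 and 0.12, had an interval off 0. Without that library they were -0.07 and 0.28. Pidd1, the platform protein that activates caspase-2, was at 0.576, 0.606 and 0.862 FPKM in Aim2 KO replicates 1 to 3, against 1.13, 1.23 and 0.543 FPKM in WT replicates 1 to 3. It lay below the expression filter and was compared alone (exact permutation test of 3 against 3, two-sided, p = 0.4). WT replicate 3 had 51 reads for it, beside 103 and 110 in the other WT libraries, and was the lowest of the 6 libraries in FPKM.

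Perp encodes a membrane protein of desmosomes that was first known as an apoptosis effector of p53. It had 2002, 1338 and 1412 FPKM in Aim2 KO replicates 1 to 3, against 1723, 1254 and 1609 FPKM in WT replicates 1 to 3, which made it the most abundant member in every library. Its log2 difference was 0.04 (95% interval -0.51 to 0.59), and -0.14 without Aim2 KO replicate 1. Phlda3, whose PH domain competes with AKT for membrane lipids, had a mean of 166 ± 5.55 FPKM in Aim2 KO libraries and of 175 ± 15.1 FPKM in WT libraries. Ei24, an endoplasmic reticulum protein, had a mean of 41.7 ± 2.68 FPKM in Aim2 KO libraries and of 40.8 ± 1.75 FPKM in WT libraries. Trp53inp1, a stress protein that acts with p53 and in autophagy, had a mean of 8.51 ± 0.492 FPKM in Aim2 KO libraries and of 8.36 ± 1.11 FPKM in WT libraries. In each of these 3 the ranges of the genotypes overlapped. Zmat3, a zinc finger protein that binds RNA, had a mean of 7.11 ± 1.40 FPKM in Aim2 KO libraries and of 6.94 ± 0.779 FPKM in WT libraries. Aen, an exonuclease of apoptotic DNA breakdown, had a mean of 11.4 ± 1.12 FPKM in Aim2 KO libraries and of 12.6 ± 0.641 FPKM in WT libraries. The differences of these 5 ran from -0.13 for Aen to 0.03 for Trp53inp1.

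Of the 8 genes of repair, metabolism and secretion, 4 had a positive difference, the median was 0.01, and 0 passed. Gdf15, chromosome 8, 70629393 to 70632456, a secreted stress cytokine, had 3.79, 0.932 and 1.00 FPKM in Aim2 KO replicates 1 to 3, against 2.24, 1.87 and 2.22 FPKM in WT replicates 1 to 3. There were 132, 36 and 34 reads of it in the mutant and 85, 70 and 87 in WT. One Aim2 KO library was thus above all WT libraries and the other two below all of them. The log2 difference was -0.23 (95% interval -1.01 to 0.55) with all libraries. Without Aim2 KO replicate 1 it was -0.66 (95% interval -0.98 to -0.34), the lowest unadjusted p of any member in that comparison, but it did not pass (limma adjusted p = 0.15). Epha2, a receptor tyrosine kinase of epithelial cells, had 24.4, 14.4 and 12.9 FPKM in Aim2 KO replicates 1 to 3, against 18.9, 13.002 and 17.0 FPKM in WT replicates 1 to 3. It was again highest in Aim2 KO replicate 1, and its difference of 0.04 was -0.23 without it.

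The sestrins restrain mTORC1 under stress. Sesn1 had 13.5, 19.3 and 18.3 FPKM in Aim2 KO replicates 1 to 3, against 20.7, 20.8 and 16.8 FPKM in WT replicates 1 to 3. Sesn2 had 6.03, 3.79 and 5.28 FPKM in Aim2 KO replicates 1 to 3, against 4.34, 4.24 and 4.92 FPKM in WT replicates 1 to 3. Aim2 KO replicate 1 was the lowest library for Sesn1 and the highest for Sesn2. Their differences of -0.19 and 0.12 were -0.04 and -0.003 without that library. Rrm2b, the ribonucleotide reductase subunit that supplies nucleotides for repair, had 3.86, 6.13 and 5.62 FPKM in Aim2 KO replicates 1 to 3, against 4.75, 4.83 and 5.02 FPKM in WT replicates 1 to 3. It had a difference of 0.06, and of 0.23 without Aim2 KO replicate 1 (limma adjusted p = 0.793). Polk, a translesion DNA polymerase, had a mean of 1.56 ± 0.146 FPKM in Aim2 KO libraries and of 1.67 ± 0.0773 FPKM in WT libraries. Ddit4, an mTORC1 inhibitor also known as REDD1, had a mean of 35.8 ± 2.85 FPKM in Aim2 KO libraries and of 36.1 ± 2.99 FPKM in WT libraries. Dcxr, a carbonyl reductase, had a mean of 25.1 ± 4.65 FPKM in Aim2 KO libraries and of 23.4 ± 3.57 FPKM in WT libraries. None of these 3 differed by more than 0.1 on the log2 scale. Of the 4 genes with a response element match shown above, Cdkn1a, Ccng1 and Polk had negative differences and Bax a positive one, and 0 of the 4 passed.

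Among the members, Aim2 KO replicate 1 was the library furthest from the others. It was the highest of the 6 libraries for 13 of the 33 tested members (39.4%), where it was the highest for 21.9% of all genes tested, and it was the lowest for 9 (27.3%), against 34.3%. Relative to the mean of the other 5 libraries it was more than 0.3 higher on the log2 scale for 9 members and more than 0.3 lower for 7, together 48.5%, against 34.3% of all genes tested. In the other 5 libraries this share of members ran from 6.06% in WT replicate 1 to 24.2% in Aim2 KO replicate 2. The members furthest above in Aim2 KO replicate 1 were Pmaip1 (0.91), Gdf15 (0.89), Btg2 (0.74) and Epha2 (0.66), and those furthest below were Gadd45g (-1.85), Ccng1 (-0.64) and Mdm4 (-0.52), each as the log2 difference of that library from the mean of the others. The part of tissue make-up in these values was not tested. This library had the least muscle signal and the highest summed FPKM of basal epithelial genes, mostly from Krt14. Without it 0 members passed, 12 of 33 (36.4%) had a positive difference, against 66.7% of all genes tested, and the groups did not overlap for 4 higher members (12.1%) and 3 lower ones (9.09%), where 17.8% of all genes tested were higher and 5.04% lower without overlap. The 4 higher ones were Bbc3, Fas, Eda2r and Rrm2b, and the 3 lower ones Cdkn1a, Psrc1 and Gdf15.

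**Figure D3:**
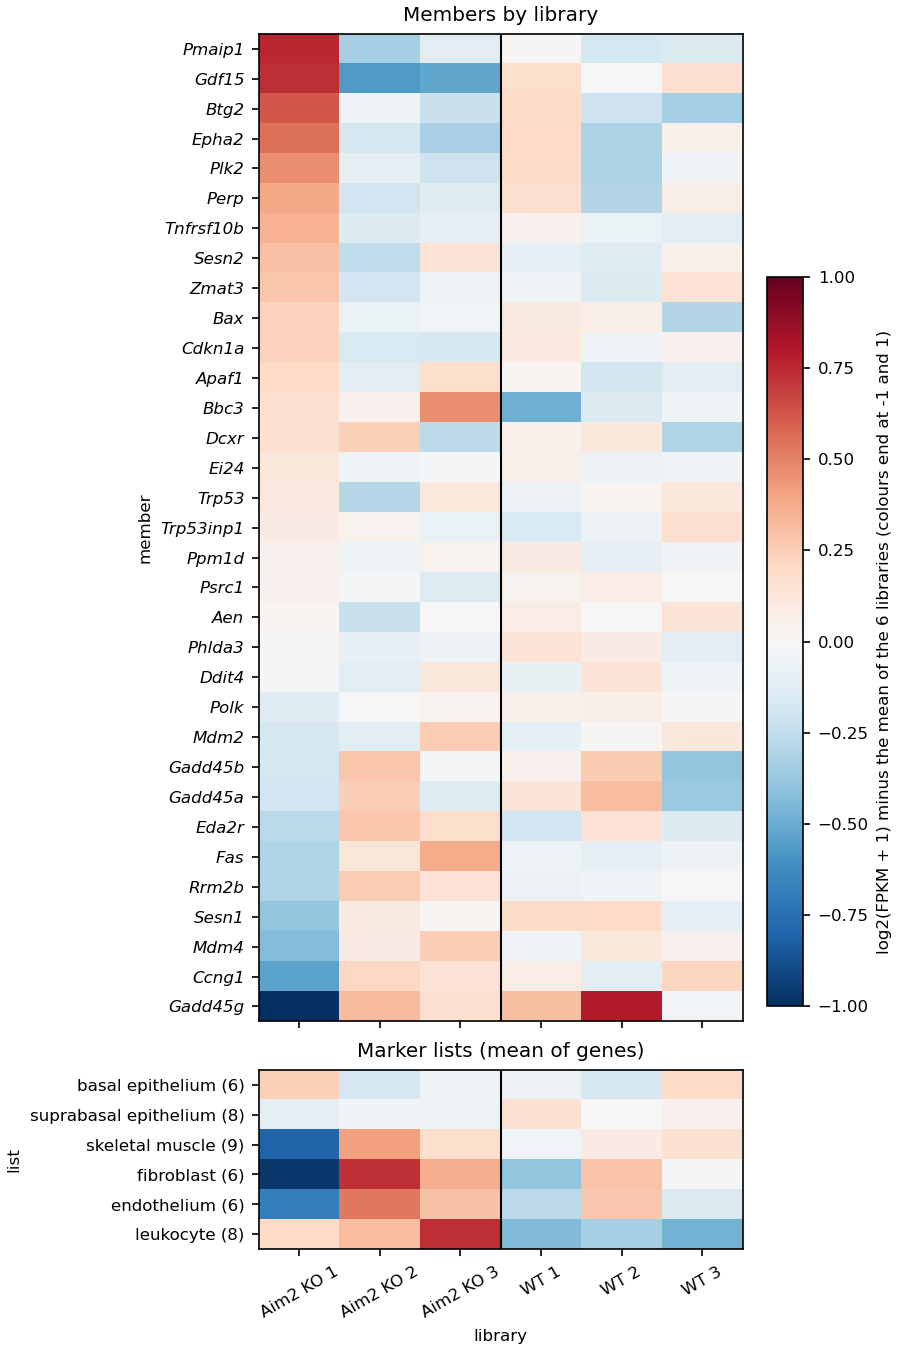
Deviation of each tested member from its own mean over the 6 libraries (top), and of the mean of each marker list (bottom), on the log2(FPKM + 1) scale. Columns are the libraries, Aim2 KO on the left, and members are ordered by their value in Aim2 KO replicate 1. That column runs from Pmaip1 at the top to Gadd45g at the bottom, which is also strongly raised in WT replicate 2, and it is the lowest library for skeletal muscle, fibroblast and endothelial markers.

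The rest of the pathway was read from lists of other genes. Of 18 relatives, kinases and cofactors of p53, 17 were tested, 0 passed, and the median log2 difference was 0.03. It was 0.08 without Aim2 KO replicate 1 and 0.14 with array quality weights. Trp63, the p53 relative of basal epithelium, had 63.9, 49.1 and 52.0 FPKM in Aim2 KO replicates 1 to 3, against 51.6, 42.7 and 60.8 FPKM in WT replicates 1 to 3, above Trp53 in every library on the FPKM scale. Trp73, the remaining family member, had 1.63, 0.936 and 1.86 FPKM in Aim2 KO replicates 1 to 3, against 1.19, 1.22 and 1.84 FPKM in WT replicates 1 to 3. Atm, the kinase that signals double-strand breaks to p53, had a mean of 1.63 ± 0.273 FPKM in Aim2 KO libraries and of 1.67 ± 0.337 FPKM in WT libraries. Chek2, which acts after it, had a mean of 4.34 ± 0.734 FPKM in Aim2 KO libraries and of 4.24 ± 0.206 FPKM in WT libraries. Cdkn2a, the locus of the Mdm2 inhibitor Arf and of the CDK inhibitor p16, had 19.1, 21.01 and 24.3 FPKM in Aim2 KO replicates 1 to 3, against 22.8, 15.01 and 14.1 FPKM in WT replicates 1 to 3, and its groups overlapped (log2 difference 0.32, limma adjusted p = 0.9998). Its gene-level value does not tell those 2 products apart.

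Of 26 further p53 targets, 24 were tested and 0 passed. Their median was 0.08, 16 were positive, and the groups did not overlap for 6 that were higher (25.0%) and 1 that was lower (4.17%), where 4.98% and 1.48% of all genes tested were so. With quantile normalization these counts were 3 and 0. Without Aim2 KO replicate 1 the median was 0.12. The groups then did not overlap for 8 higher (33.3%) and 1 lower (4.17%), where 17.8% and 5.04% of all genes tested were so. With all 6 libraries the smallest p was that of Sesn3, the third sestrin. It had a mean of 9.54 ± 0.354 FPKM in Aim2 KO libraries and of 7.55 ± 0.282 FPKM in WT libraries. Tob1, an antiproliferative relative of Btg2, followed at a mean of 54.6 ± 3.48 FPKM in Aim2 KO libraries and of 67.7 ± 7.57 FPKM in WT libraries. Next came Ckap2, a spindle protein, at a mean of 7.18 ± 1.38 FPKM in Aim2 KO libraries and of 5.50 ± 0.407 FPKM in WT libraries. Bid, a BH3-only protein that links death receptors to mitochondria, was at a mean of 3.01 ± 0.866 FPKM in Aim2 KO libraries and of 2.07 ± 0.0997 FPKM in WT libraries. Tob1 was lower and the other 3 higher in all Aim2 KO libraries than in any WT library, and all 4 had a limma adjusted p of 0.9998.

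The cell cycle genes that p21 and DREAM repress were mostly higher in the Aim2 KO means. Of 18 listed and tested, 17 had a positive difference and the median was 0.27, against 0.02 for all genes tested, but 0 passed by limma or by voom. At an unadjusted p under 0.05 there were 6 by limma and 5 by voom, all of them higher. Of all genes tested 1.93% were so and higher by limma, and 225 of 12144 by voom. The groups did not overlap for 5 that were higher and for E2f1, which was lower (27.8% and 5.56%, where 4.98% and 1.48% of all genes tested were so). With quantile normalization these counts were 1 and 0. Ccnb2, cyclin B2, had 12.4, 10.1 and 8.27 FPKM in Aim2 KO replicates 1 to 3, against 7.76, 6.36 and 7.62 FPKM in WT replicates 1 to 3. Plk1, the mitotic polo-like kinase, had 10.8, 9.64 and 11.3 FPKM in Aim2 KO replicates 1 to 3, against 7.52, 8.55 and 9.38 FPKM in WT replicates 1 to 3. For both of these the groups did not overlap. Top2a, topoisomerase II alpha, had 19.2, 16.4 and 18.8 FPKM in Aim2 KO replicates 1 to 3, against 11.6, 10.7 and 16.9 FPKM in WT replicates 1 to 3. Ccnb1, cyclin B1, had 14.6, 10.1 and 11.1 FPKM in Aim2 KO replicates 1 to 3, against 7.80, 7.70 and 10.3 FPKM in WT replicates 1 to 3. For Top2a and Ccnb1 WT replicate 3 reached the Aim2 KO range. Without Aim2 KO replicate 1 the median was 0.19 and 16 of 18 were positive. At an unadjusted p under 0.05 there were then 1 higher and 1 lower, beside 5.36% of all genes tested higher and 1.53% lower. In that comparison the groups did not overlap for 5 higher (27.8%) and 1 lower (5.56%), where 17.8% and 5.04% of all genes tested were so. All 8 leukocyte markers were higher in every Aim2 KO library than in any WT library, with a median of 0.74. It was 1.08 to 1.16 with array quality weights, a pseudocount of 0.1 or voom. The mean log2(FPKM + 1) of the cell cycle genes was highest in Aim2 KO replicate 1 (3.00), which had the lowest leukocyte mean of the Aim2 KO libraries (2.62). In WT replicate 3 it was 2.79, above Aim2 KO replicate 2 (2.70), with a leukocyte mean of 1.95. Basal epithelial means were highest in Aim2 KO replicate 1 (8.51) and WT replicate 3 (8.46). The part of leukocytes or basal epithelium in the level of the cell cycle genes was not tested.

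Several members also answer to other stress signals, and the genes of those programmes did not pass either. Among 12 genes of the integrated stress response, which shares Sesn2, Ddit4 and Gdf15 with p53, the median was 0.03 and 0 passed. Without Aim2 KO replicate 1 the median was -0.07, with 8 of 12 negative, and with array quality weights it was -0.09. Among 8 genes induced by glucocorticoids, which also raise Ddit4, 7 were negative with a median of -0.26, and among 9 tested immediate early genes 7 were negative with a median of -0.15. At an unadjusted p under 0.05 limma gave 0 stress response genes and 1 gene of each of the others, which was lower, where 0.576% of all genes tested were so and lower, and voom gave 0, 1 and 0. Without Aim2 KO replicate 1 the glucocorticoid list had 6 of 8 negative with a median of -0.13, and with array quality weights its median was -0.10. Without that library all 9 immediate early genes were negative with a median of -0.34, and 5 of them had an unadjusted p under 0.05, where 1.53% of all genes tested were so and lower. In the same comparison the fibroblast, endothelial and muscle markers had medians of 0.61, 0.45 and 0.19, and their part in these values was not tested. Those under that p with all 6 libraries were Errfi1, a feedback inhibitor of EGF receptors, at a mean of 12.6 ± 1.49 FPKM in Aim2 KO libraries and of 15.3 ± 0.372 FPKM in WT libraries, and Fos, a subunit of AP-1, at a mean of 6.69 ± 1.44 FPKM in Aim2 KO libraries and of 9.57 ± 2.36 FPKM in WT libraries.

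**Figure D4:**
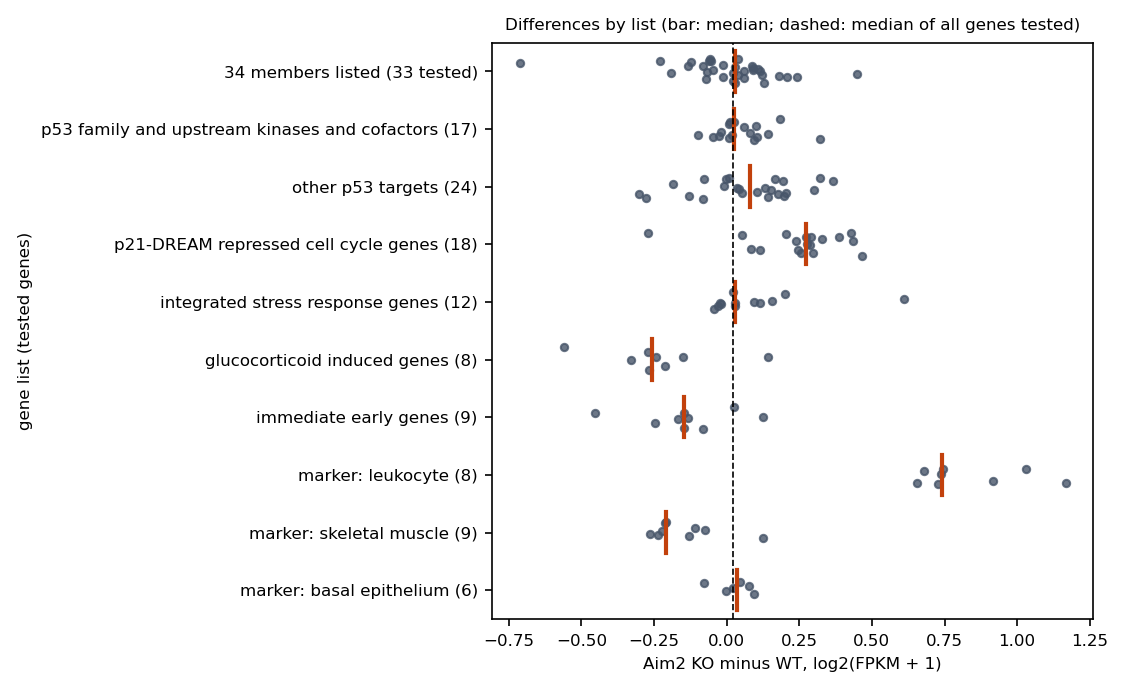
Log2 differences, Aim2 KO minus WT on the log2(FPKM + 1) scale, of the tested genes of each list, one point a gene. Orange bars are list medians and the dashed line is the median of all genes tested, 0.02. The members centre on the dashed line, 17 of the 18 p21-DREAM genes lie above 0, and the leukocyte markers lie furthest right.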

How the data were processed

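The authors deposited 1 table of FPKM values for 35275 genes in the 6 libraries, with gene length and position. For the aligner, the counter, its strand setting and the build: not given in the sources used here. Positions equal those of GENCODE M21 (GRCm38) for 24932 of the 34490 gene IDs found there (72.3%) and for 19 of the 34 members, so GRCm38 was taken as the build. Tigar, outside the members, was matched by ID under an older symbol.

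FPKM values were tested as log2(FPKM + 1) with limma 3.58.1 (trend, R 4.3.3) in all 6 libraries, keeping the 12144 genes whose mean reached 1 FPKM, and calling genes at a Benjamini-Hochberg adjusted p under 0.05. Differences are Aim2 KO minus WT and understate the change of low genes. The deposited FPKM steps gave whole reads, within 0.01 of a read, for 100% of values. Their sums over the listed genes set the depth (21959204 to 25369400 reads), and they served voom. Replicates differed beyond counting noise, so none was counted as a repeat of another. The scripts were tested on simulated data. The members, lists and tests were chosen with earlier results of these data known. Named were all members, up to 4 tested genes with the smallest p in each list, and Trp63, Trp73, Atm, Chek2, Cdkn2a, defining markers and Aim2. E2f1 was named after its values were seen. The 19 alternatives covered pseudocount, filter, scaling, weights, covariates, voom, the replicate block and leaving out each library. RefSeq promoter windows of GRCm38 were matched by symbol for 28 of 34 members.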

Additional observations from a re-analysis of the deposited data

How the results depend on the processing

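Under none of the 19 alternatives did a p53 member pass the threshold, and the lowest limma adjusted p of any member was 0.131, for Bbc3 with array quality weights. Calls over all genes were 1 higher and 0 lower. The higher count was 0 with TPM rescaling, with a filter of 0.1 FPKM, without a filter and with the replicate block, 65 with array quality weights, and 0 to 12 when 1 library was left out. The lower count was 3 with array quality weights, 1 with the skeletal muscle covariate, and 0 to 2 when 1 library was left out, with the 12 and the 2 both coming without Aim2 KO replicate 1. Replicate numbers were not shown to pair the libraries. The mean of its genotype was subtracted from each gene's log2 values, and the remainders were correlated between libraries. Those of same-numbered Aim2 KO and WT libraries correlated at 0.35, 0.46 and 0.03, and Aim2 KO replicate 3 correlated best with WT replicate 2. The block left the members at 0 calls. With quantile normalization 0 members were higher and 0 lower without overlap, beside 3.89% and 2.29% of all genes tested. When 1 library was left out, 1 to 4 of the 33 tested members were higher without overlap, beside 7.4% to 17.8% of all genes tested. Lower ones then numbered 0 to 3, beside 3.77% to 5.22%. The members' median of 0.03 was -0.0172 with array quality weights and -0.0117 to 0.0472 when 1 library was left out.

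The log2 differences of 23 members changed sign somewhere, and 0.24 was the largest of these by size. Changes of sign beyond the SE came with array quality weights for Mdm2 (0.19), Mdm4 (0.17), Btg2 (-0.0917), Plk2 (-0.14), Dcxr (-0.15), Epha2 (-0.27) and Atm (0.14). They came without Aim2 KO replicate 1 for 9 genes, whose ranges over the left-out libraries were -0.21 to 0.13 for Mdm4, -0.00591 to 0.42 for Btg2, -0.25 to 0.11 for Ccng1, -0.10 to 0.24 for Plk2, -0.12 to 0.43 for Pmaip1, -0.23 to 0.21 for Epha2, -0.36 to 0.0663 for Atp2a1, -0.38 to 0.10 for Tnni2 and -0.27 to 0.32 for Pdgfra. Sign changes smaller than the SE were counted as unchanged. Of the 8 leukocyte markers, 7 passed with array quality weights. The cause was not tested in any of these. Libraries of one genotype differed by 26.5 to 122 times counting noise (chi-square per degree of freedom).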
